A study of Mus musculus with 6 samples.

Results

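The genes described here are 10 components and direct outputs of the circadian clock: Per1, Per2, Per3, Cry1, Nr1d1, Nr1d2, Dbp, Tef, Npas2 and Clock. They were picked by gene symbol, with earlier results of these data known, and all 10 were found among the 25339 genes of the deposited table. Their messenger RNA was measured by RNA sequencing in mouse colon, in 3 libraries labelled DMSO, the solvent, and 3 libraries labelled lenvatinib, a cancer drug that blocks several growth factor receptor kinases, those for VEGF among them. The series title concerns colitis, without a label that tells if either group had it. Strain, age, sex, dose, length of treatment and the hour at which tissue was taken, which bears on every clock gene, are not given in the labels. The numbered libraries are called biological replicates, with no word on the animal behind each, so the p-values reflect library-to-library spread, which may be technical. Values below are listed in the order of library numbers.

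The clock is a feedback loop of transcription that runs in most cells, including the epithelium and muscle of the colon. The activators CLOCK or NPAS2 pair with BMAL1, bind E-boxes (CACGTG) and switch on the Per, Cry and Nr1d genes and the output genes Dbp and Tef. PER and CRY proteins then repress these activators, REV-ERBα and REV-ERBβ (from Nr1d1 and Nr1d2) repress Bmal1, Npas2 and Clock, and DBP and TEF carry the rhythm to further genes through D-boxes. In mouse tissues the transcripts of Nr1d1, Dbp and the Per genes rise and fall over the day, and those of Bmal1 and Npas2 do so at roughly the opposite phase.

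Recovered depth was 37660528 to 39287783 reads in genes per library. Colon epithelium was present in every library, with Car1, an abundant enzyme of colonocytes, at 7590 to 10357 FPKM (fragments per kilobase of gene, scaled to the depth of the library). Of 10 epithelial markers 0 were called, where 2.03% of all genes tested were. Groups did not overlap for 1 of them in the higher direction, Slc26a3 (195, 165 and 165 FPKM in DMSO and 205, 351 and 350 FPKM in lenvatinib). Its lenvatinib 1 was barely above DMSO 1. In the lower direction 5 did not overlap, with Muc2 the furthest apart in means (174 and 83.4 FPKM). DMSO 1 was far above the other DMSO libraries for Muc2 (262, 122 and 136 FPKM, and 71.0, 86.2 and 93.0 FPKM in lenvatinib). Over all genes tested 10% and 17.5% did so. Libraries 2 and 3 of each group were close to each other, with an SD of gene-wise log2 differences of 0.10 for DMSO and 0.11 for lenvatinib, against 0.29 to 0.48 for all other pairs. DMSO 1 was the only library with Ddx3y, a Y-linked gene (6.54 FPKM, listed at 0 in the other 5), and nearly lacked Xist (0.00147 against 15.9 to 19.8 FPKM). By these genes DMSO 1 was male tissue and the other 5 libraries were female, so DMSO mixed the sexes and lenvatinib did not. The part of sex in the clock gene values was not tested. Markers of some other cells were called. All 8 macrophage markers fell (summed level 341 to 386 FPKM in DMSO and 142 to 196 FPKM in lenvatinib), as did 4 of 6 fibroblast markers (497 to 525 and 298 to 360 FPKM). Of 9 tested small intestine markers 7 rose (426 to 563 and 625 to 941 FPKM, with Defa24 and Mptx2 at 0 in some DMSO libraries). Over all genes tested, 1.1% were called higher and 0.934% lower. Apoa1, Defa24, Mptx2 and Sis had DMSO means of 0.315, 0.377, 0.0373 and 0.0702 FPKM. They reached the average of 1 FPKM needed for the test only through the lenvatinib libraries. Fabp2, which did not pass, made up 406 to 540 FPKM of the sum in DMSO and 302 to 479 FPKM in lenvatinib. None of 7 B and T cell markers passed (93.0 to 98.1 and 13.7 to 80.6 FPKM), nor did any tested marker of smooth muscle (8 genes, 1452 to 1587 and 1526 to 1840 FPKM), enteric neurons (3 genes, 13.4 to 14.8 and 14.5 to 15.6 FPKM) or endothelium (6 genes, 36.5 to 40.8 and 30.1 to 43.2 FPKM). The part of these cell types in the clock gene values was not tested, and in bulk tissue a change in the number of cells cannot be told apart from a change of RNA per cell.

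In DMSO colon the mean levels ran from Cry1 (8.37 FPKM) and Clock (8.08 FPKM) through Nr1d1 (6.63 FPKM), Npas2 (5.30 FPKM), Nr1d2 (4.96 FPKM), Per1 (3.72 FPKM), Tef (3.02 FPKM), Per2 (2.18 FPKM) and Dbp (1.33 FPKM) to Per3 (0.471 FPKM). The libraries of Cry1 and Clock overlapped, as did those of Npas2 and Nr1d2 and those of Per1 and Tef, so these neighbours are not ordered beyond their spread. In lenvatinib colon Nr1d1 was the highest of the 10 (15.99 FPKM), followed by Nr1d2 (8.88 FPKM), Cry1 (7.49 FPKM), Tef (7.21 FPKM) and Clock (6.62 FPKM), each of which overlapped its neighbour from Nr1d2 onwards. Npas2 (5.43 FPKM) and Per1 (5.08 FPKM) also overlapped, and Dbp (3.70 FPKM), Per2 (2.70 FPKM) and Per3 (1.30 FPKM) came last without overlap.

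**Figure D1:**
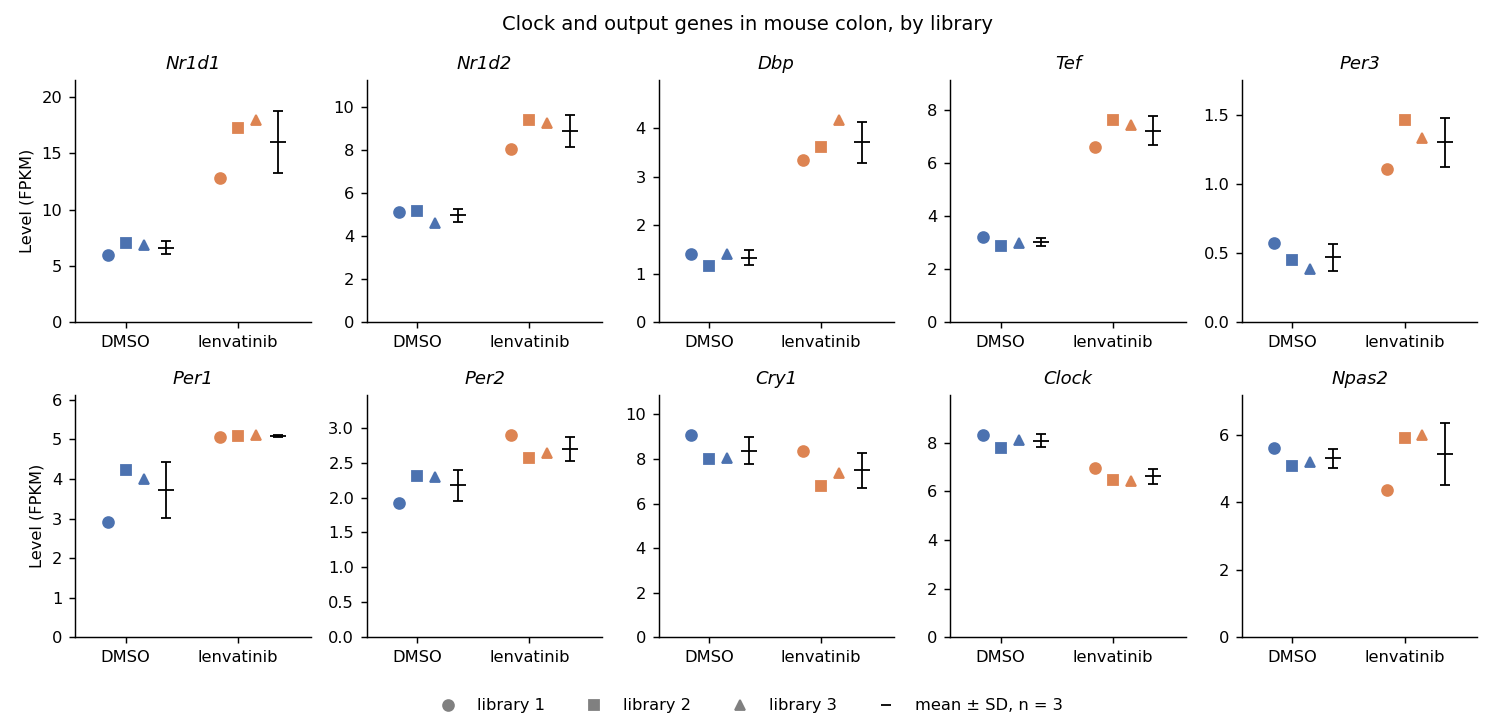
Level in FPKM (y axis, from 0, a separate scale in each panel) of the 10 clock and output genes in the DMSO and lenvatinib libraries; symbols are libraries 1 to 3 and the bars beside them the mean ± SD (n = 3). The upper row, Nr1d1, Nr1d2, Dbp, Tef and Per3, has every lenvatinib library above every DMSO library by a wide gap, and Cry1 and Npas2 in the lower row overlap.

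The loop's repressors of Bmal1 and its D-box outputs were higher in the lenvatinib libraries. Of the 9 members that reached an average of 1 FPKM over the libraries and were tested by limma with the rest of the table, 4 rose: Nr1d1, Nr1d2, Dbp and Tef. With the like libraries 2 and 3 of each group as a random block 1 of them passed, Tef, and with each pair averaged, or with the replicate number as a block, 0 did. None fell, and the other 5 did not pass. Over all 11774 genes tested, 2.03% were called, 1.1% higher and 0.934% lower, at an adjusted p below 0.05. The median log2 fold change of the 9 was 0.38, against −0.07 over all genes tested. Groups did not overlap for 6 of the 9 in the higher direction and for 1, Clock, in the lower direction, where over all genes tested 10% and 17.5% did so.

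Upstream sequence is shown for Nr1d1, Tef and Per3, 3 of the 4 members with the largest ratios of means, because the 250 bases before a start site of each hold a clock motif. The sequences are RefSeq's on build GRCm38.p6, which is not the build GRCm39 named for the deposited values, and run 5′ to 3′ on the gene's strand up to the base before the start site. Capitals mark the E-box CACGTG, the D-box TTATGTAA and an E-box variant that reads AACGTG on this strand.
Nr1d1, chr11:98775378-98775627, minus strand: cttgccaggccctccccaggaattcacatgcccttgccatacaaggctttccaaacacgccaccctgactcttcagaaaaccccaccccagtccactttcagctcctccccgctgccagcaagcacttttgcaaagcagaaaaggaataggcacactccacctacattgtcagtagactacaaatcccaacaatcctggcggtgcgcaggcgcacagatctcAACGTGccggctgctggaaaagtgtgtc
Tef, chr15:81811164-81811413, plus strand: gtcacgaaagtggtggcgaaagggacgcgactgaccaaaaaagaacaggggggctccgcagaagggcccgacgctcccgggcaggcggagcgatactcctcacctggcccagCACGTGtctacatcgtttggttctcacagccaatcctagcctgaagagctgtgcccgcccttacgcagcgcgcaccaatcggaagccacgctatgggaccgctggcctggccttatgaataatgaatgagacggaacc
Per3, chr4:151044666-151044915, minus strand: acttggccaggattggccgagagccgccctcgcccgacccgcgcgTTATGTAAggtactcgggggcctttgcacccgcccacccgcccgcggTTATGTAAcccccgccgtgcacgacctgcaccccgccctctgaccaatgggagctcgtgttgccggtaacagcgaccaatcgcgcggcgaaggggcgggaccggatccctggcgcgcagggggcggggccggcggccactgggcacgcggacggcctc
The Tef window, before 1 of 2 start sites listed, holds an E-box beginning 138 bases before the start. The window before the other Tef site, within annotated exons and not shown, holds an E-box beginning 127 bases before that site. The Nr1d1 window holds the variant 28 bases before the start, and that of Per3 holds D-boxes 205 and 158 bases before it. The bases just after this Nr1d1 start site were not found in transcripts of the gene in GENCODE, another annotation, so the site is less certain. Those after the Tef and Per3 sites shown were found. The search covered both strands for the E-box, for its variant CACGTT and for a D-box in the form TTATGTAA or the form TTACGTAA. It also covered the ROR element core AGGTCA and the cAMP response element TGACGTCA, which are not marked in capitals. The letters of these motifs do not overlap one another in the windows shown. Among 32536 windows of 250 bases in the same table, 6.04% held an E-box, 3.87% the variant and 0.925% a D-box. The ROR element core was in 14.0% of them and the cAMP response element in 1.56%. The first-listed Per1 window and the Cry1 window held an E-box 166 and 60 bases before the start, and Cry1 the variant as well. No E-box, variant or D-box was in the windows of Nr1d2, Dbp, Npas2 or Clock. The ROR element core lay 77 bases before the start in Nr1d2, 137 in the first-listed Per1 window and 119 in 1 of 3 Clock windows. No member window held the cAMP response element. These matches are descriptions of sequence only, and Per2 had no entry.

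Nr1d1, which encodes REV-ERBα, a nuclear receptor that represses Bmal1, measured 5.97, 7.06 and 6.87 FPKM in DMSO and 12.8, 17.2 and 17.9 FPKM in lenvatinib. Every lenvatinib library lay above every DMSO library, and lenvatinib 1 was the lowest of its group. The mean rose 2.41-fold, from 6.63 ± 0.582 to 15.99 ± 2.76 FPKM (SD, n = 3), a log2 fold change of 1.14 (SE 0.136; limma adjusted p = 0.0149) in units of log2(FPKM + 1), where the added 1 makes changes of low genes look smaller. Between the libraries numbered 1 the ratio of levels was 2.15, and between the means of libraries 2 and 3 it was 2.52. Nr1d1 overlaps Thra, a thyroid hormone receptor gene on the opposite strand, and the strand setting of the counting is not given, so reads there cannot be told apart. Thra measured 12.0, 14.0 and 13.5 FPKM in DMSO and 14.0, 16.9 and 18.0 FPKM in lenvatinib, and did not pass (limma adjusted p = 0.205).

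Nr1d2, which encodes the related repressor REV-ERBβ, measured 5.12, 5.15 and 4.61 FPKM in DMSO and 8.04, 9.38 and 9.24 FPKM in lenvatinib. The groups were again separate, with lenvatinib 1 the lowest of its group. The mean rose 1.79-fold, from 4.96 ± 0.306 to 8.88 ± 0.738 FPKM (log2 fold change 0.73, SE 0.0828; limma adjusted p = 0.0130). The ratio was 1.57 between the libraries numbered 1 and 1.91 between the means of libraries 2 and 3.

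Dbp, the D-box binding protein and a classic output of the clock, measured 1.42, 1.154 and 1.42 FPKM in DMSO and 3.33, 3.61 and 4.16 FPKM in lenvatinib. It had the largest ratio of means of the 10 genes, 2.79, and its groups were far apart. The means were 1.33 ± 0.152 and 3.70 ± 0.422 FPKM (log2 fold change 1.01, SE 0.0978; limma adjusted p = 0.00732). On the recovered reads, without a pseudocount of this size, limma with voom weights gave a log2 fold change of 1.54 (SE 0.185; adjusted p = 0.0138). Dbp rested on 125 to 441 reads per library, where counting error alone is 8.94% at the fewest reads. It overlaps Sphk2, a sphingosine kinase gene on the opposite strand, which measured 13.1 to 14.4 FPKM in DMSO and 12.2 to 13.5 FPKM in lenvatinib (limma adjusted p = 0.437).

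Tef, a relative of Dbp in the same family of D-box factors, measured 3.20, 2.88 and 2.98 FPKM in DMSO and 6.59, 7.61 and 7.43 FPKM in lenvatinib. It rested on 798 to 2077 reads and was the member with the smallest p. The mean rose 2.39-fold, from 3.02 ± 0.164 to 7.21 ± 0.546 FPKM (log2 fold change 1.03, SE 0.0784; limma adjusted p = 0.00327). Its ratio was 2.06 between the libraries numbered 1 and 2.57 between the means of libraries 2 and 3. Hlf, the remaining gene of this family, lay under the minimum for the test, at 0.694, 0.497 and 0.458 FPKM in DMSO and 1.05, 1.02 and 1.09 FPKM in lenvatinib. Its groups did not overlap. It passed narrowly when limma with voom weights was run on the recovered reads with low genes kept, an alternative chosen after seeing the data (log2 fold change 1.03, SE 0.185; adjusted p = 0.0478), and did not pass in limma on FPKM with no filter (0.41, adjusted p = 0.116).

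Whether the 4 genes passed depended on how libraries 2 and 3 were counted. With each such pair averaged, the log2 fold changes were 1.11 for Nr1d1, 0.69 for Nr1d2, 0.97 for Dbp and 0.99 for Tef, against 1.14, 0.73, 1.01 and 1.03 above. None of the 4 passed then (limma adjusted p = 0.359 for Nr1d1, 0.428 for Nr1d2, 0.265 for Dbp and 0.231 for Tef), and with the pairs as a random block only Tef did (0.0309, against 0.0502 for Nr1d1, 0.240 for Nr1d2 and 0.254 for Dbp). Leaving out a library from such a pair also kept Tef (0.0295 to 0.0379) and ended the calls of Nr1d1 (0.0752 to 0.0911) and Nr1d2 (0.0785 to 0.0890), while Dbp was lost without DMSO 2, DMSO 3 or lenvatinib 2 (0.0523, 0.0545 and 0.0515) and kept without lenvatinib 3 (0.0432). All 4 passed without DMSO 1 (0.0482 for Nr1d1, 0.0357 for Nr1d2, 0.0259 for Dbp and 0.0128 for Tef) and without lenvatinib 1 (4.49e-04 to 0.00117). The calls over all genes moved with these settings too. They were 1 higher and 2 lower with the pairs averaged, and 27 and 19 with the random block. Without a library of such a pair they were 22 to 32 and 22 to 29, and without DMSO 1 they were 144 and 123. Without lenvatinib 1, 9.91% of all genes were called higher and 28.1% lower.

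**Figure D2:**
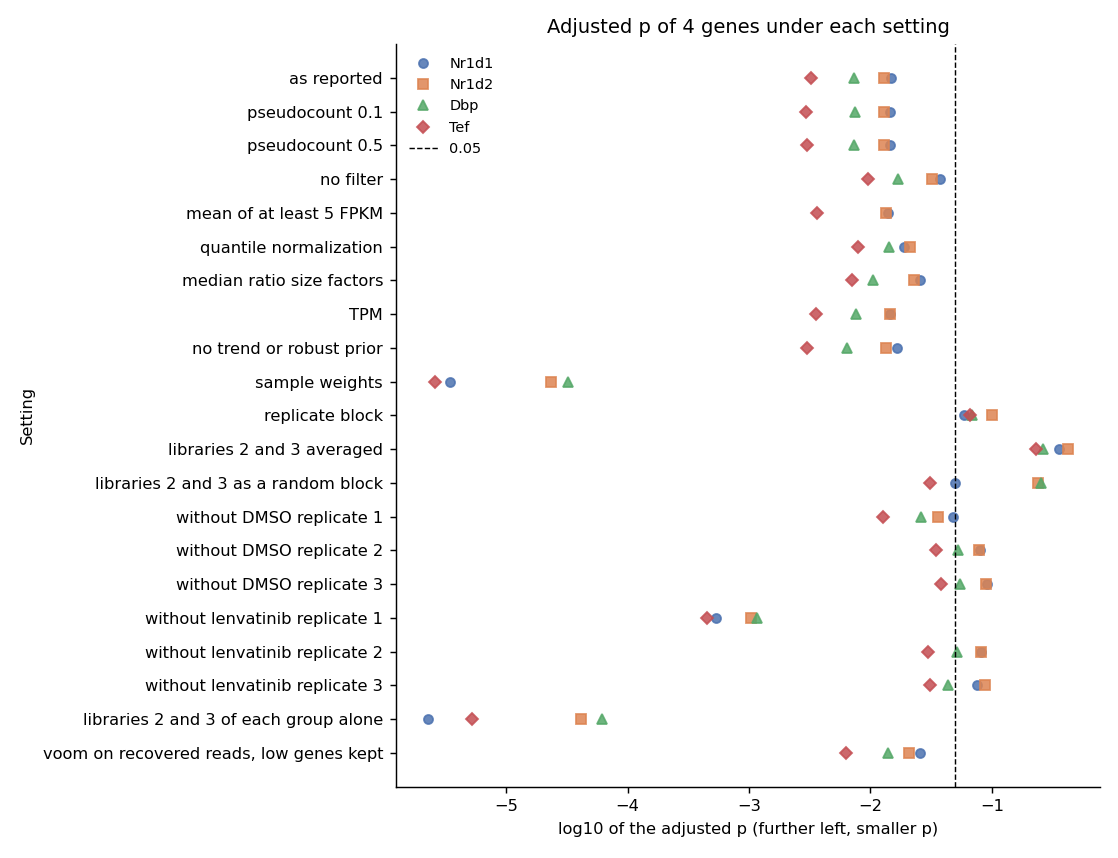
The x axis gives the log10 of the adjusted p of Nr1d1, Nr1d2, Dbp and Tef under each setting on the y axis, and the dashed line marks 0.05. Points right of the line did not pass; with libraries 2 and 3 averaged all 4 genes lie there (0.231 to 0.428), and Dbp has no point at a mean of at least 5 FPKM, where it was not tested.

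Among the Per genes, whose proteins are the loop's negative arm, Per3 had the largest ratio. It measured 0.576, 0.452 and 0.385 FPKM in DMSO and 1.11, 1.46 and 1.33 FPKM in lenvatinib, and its groups did not overlap. The means were 0.471 ± 0.0971 and 1.30 ± 0.177 FPKM, a ratio of 2.77, from 102 to 389 reads per library. Its mean over all libraries was below the minimum for the limma test. It did not pass when limma was run with no filter (log2 fold change 0.65, adjusted p = 0.0544; 0.309% of genes called higher and 0.276% lower) and passed in limma with voom weights and low genes kept (log2 fold change 1.54, SE 0.226; adjusted p = 0.0257), in which 1.15% of 15818 genes were called higher and 0.917% lower.

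Per1 and Per2 were higher in every lenvatinib library than in any DMSO library and did not pass. Per1, which also responds quickly to glucocorticoids and cAMP, measured 2.91, 4.23 and 4.01 FPKM in DMSO and 5.05, 5.08 and 5.11 FPKM in lenvatinib (log2 fold change 0.38, SE 0.120; limma adjusted p = 0.160). DMSO 1, the only library with Ddx3y, was well below the other DMSO libraries, and the 3 lenvatinib libraries were nearly equal. Without DMSO 1 the log2 fold change was 0.25 (adjusted p = 0.127). Per2 measured 1.92, 2.31 and 2.30 FPKM in DMSO and 2.90, 2.56 and 2.64 FPKM in lenvatinib (log2 fold change 0.22, SE 0.0853; limma adjusted p = 0.210), again with DMSO 1 lowest. The ratio of Per2 between the libraries numbered 1 was 1.51, and between the means of libraries 2 and 3 it was 1.13. Both genes passed in limma with sample weights (adjusted p = 0.00429 for Per1 and 0.0431 for Per2), a setting that called 19.1% of all genes higher and 45.3% lower. Gm35591, a noncoding gene that overlaps Per2, reached at most 0.301 FPKM.

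Cry1, a cryptochrome that represses CLOCK and BMAL1 together with PER, measured 9.07, 7.996 and 8.04 FPKM in DMSO and 8.34, 6.77 and 7.35 FPKM in lenvatinib. The groups overlapped through lenvatinib 1, and the difference did not pass (log2 fold change −0.14, SE 0.0924; limma adjusted p = 0.368). Cry2, its paralog, measured 5.62, 3.73 and 4.30 FPKM in DMSO and 4.51, 6.02 and 6.38 FPKM in lenvatinib, and did not pass either (log2 fold change 0.26; limma adjusted p = 0.363).

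None of the activators passed in the main limma fit, in either direction. Clock, which encodes the histone acetyltransferase partner of BMAL1, measured 8.32, 7.79 and 8.13 FPKM in DMSO and 6.97, 6.46 and 6.42 FPKM in lenvatinib. Every lenvatinib library was below every DMSO library, at a ratio of means of 0.819, and the difference did not pass (log2 fold change −0.25, SE 0.0641; limma adjusted p = 0.110). It passed without lenvatinib 1 (log2 fold change −0.29, adjusted p = 0.0115), where 9.91% of all genes were called higher and 28.1% lower, and with sample weights (−0.27, adjusted p = 5.90e-04), where 45.3% were called lower. Clock also passed with libraries 2 and 3 of each group alone (−0.27, limma adjusted p = 0.00262), where 5071 of 11709 genes were called lower. Npas2, the paralog that can take the place of CLOCK, measured 5.62, 5.08 and 5.20 FPKM in DMSO and 4.38, 5.92 and 5.995 FPKM in lenvatinib. Lenvatinib 1 was below and lenvatinib 2 and 3 above all DMSO libraries, so the 2 comparisons by number point in opposite directions, with ratios of 0.779 between the libraries numbered 1 and 1.16 between the means of libraries 2 and 3 (log2 fold change 0.02, SE 0.118; limma adjusted p = 0.926). Bmal1, the shared partner of both, measured 3.14, 3.15 and 3.12 FPKM in DMSO and 2.23, 2.90 and 2.91 FPKM in lenvatinib, lower in all 3 and not passing (log2 fold change −0.17, SE 0.0963; limma adjusted p = 0.313).

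**Figure D3:**
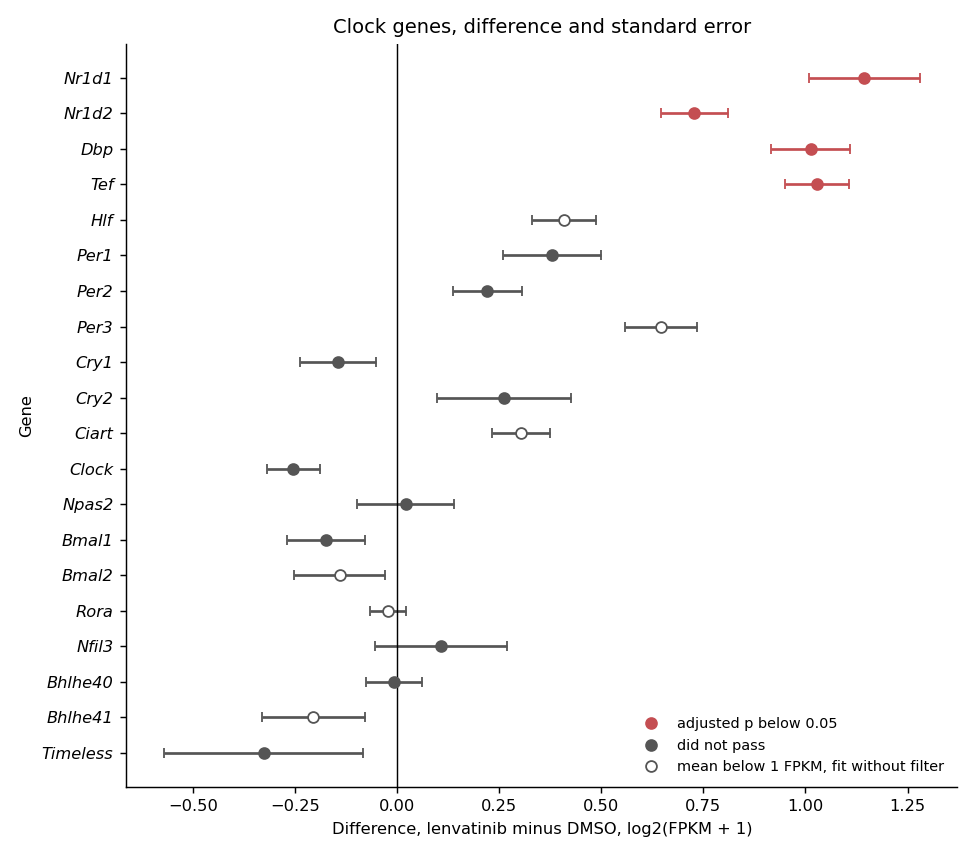
Difference between lenvatinib and DMSO on the log2(FPKM + 1) scale (x axis, points with standard error) for the clock genes on the y axis; red points passed at an adjusted p below 0.05, and open points are genes under 1 FPKM from the fit without a filter. The 4 red points, Nr1d1, Nr1d2, Dbp and Tef, lie between 0.73 and 1.14, and Clock and Bmal1 lie at −0.25 and −0.17.

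Ratios between 3 pairs of clock genes were taken within each library. The log2 ratio of Dbp to Npas2, each as FPKM + 1, was −1.46, −1.50 and −1.36 in DMSO and −0.31, −0.59 and −0.44 in lenvatinib. That of Nr1d1 to Bmal1 was 0.75, 0.96 and 0.94 in DMSO and 2.10, 2.22 and 2.28 in lenvatinib. That of Per2 to Cry1 was −1.79, −1.44 and −1.45 in DMSO and −1.26, −1.13 and −1.20 in lenvatinib. All 3 ratios were higher in every lenvatinib library than in any DMSO library. For Dbp to Npas2, lenvatinib 1 had the highest ratio, although its Dbp level was the lowest of its group. For Per2 to Cry1 the gap between the groups was small beside the distance of DMSO 1 from DMSO 2 and 3.

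**Figure D4:**
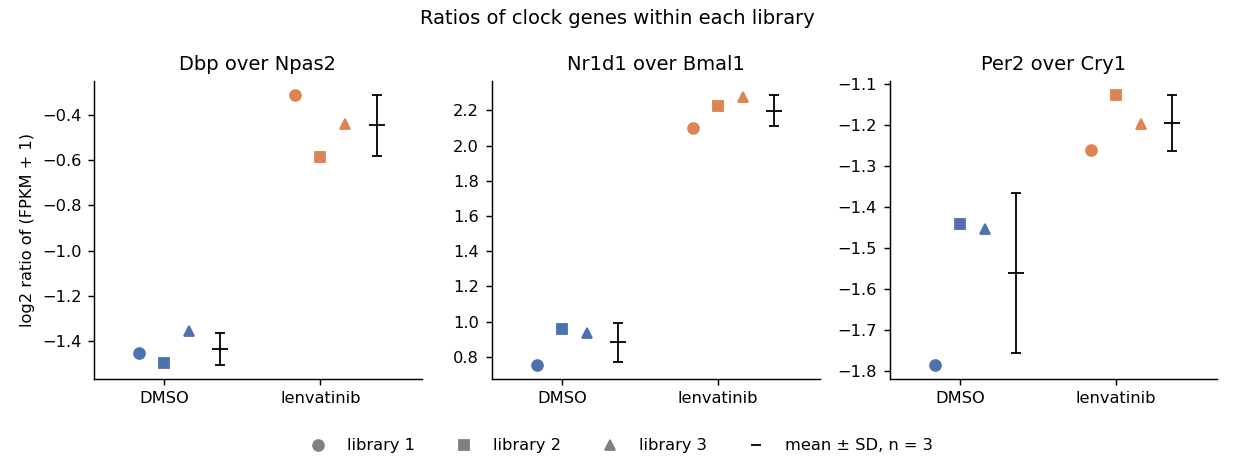
log2 ratio of FPKM + 1 between pairs of clock genes within each library (y axis, a separate scale that does not start at 0 in each panel), for DMSO and lenvatinib; symbols are libraries 1 to 3 and bars the mean ± SD (n = 3). The means are −1.44 and −0.44 for Dbp over Npas2, 0.88 and 2.20 for Nr1d1 over Bmal1, and −1.56 and −1.19 for Per2 over Cry1.

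The list of 12 other core clock genes had 6 tested genes, of which 0 rose and 0 fell in limma (0 at an unadjusted p below 0.05; with voom weights Hlf alone was called). Their median log2 fold change was 0.05. Besides Cry2 and Bmal1 these included Nfil3, Bhlhe40 and Timeless. Nfil3, a D-box repressor, measured 5.77, 5.09 and 5.31 FPKM in DMSO and 7.89, 4.95 and 5.16 FPKM in lenvatinib, with lenvatinib 1 apart from all other libraries. Bhlhe40, for the E-box repressor DEC1, had the highest mean level of these genes and the 10 members in both groups, at 37.1 ± 2.14 and 36.9 ± 1.81 FPKM. Timeless, which acts in DNA replication, measured 0.996, 1.30 and 1.33 FPKM in DMSO and 1.59, 0.484 and 0.403 FPKM in lenvatinib. For these 3 genes the groups overlapped.

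Of the low core genes other than Hlf, Ciart, a repressor that binds BMAL1, was higher in every lenvatinib library than in any DMSO library. It measured 0.190, 0.148 and 0.220 FPKM in DMSO and 0.588, 0.358 and 0.454 FPKM in lenvatinib, from 13 to 50 reads, and did not pass in limma with voom weights (log2 fold change 1.37, SE 0.311; adjusted p = 0.0806). The window before its start site in the promoter table holds E-boxes 116, 58 and 44 bases upstream. Bmal2 and Bhlhe41 had means of 0.349 and 0.580 FPKM in DMSO and 0.222 and 0.377 FPKM in lenvatinib, Rora 0.199 and 0.180 FPKM, and the groups of each overlapped. Rorb was at or near 0 in every library.

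No gene for an enzyme that modifies clock proteins passed. Of 11 tested genes of that list, 0 rose and 0 fell in limma (1 at an unadjusted p below 0.05), and with a median log2 fold change of −0.06 they lay close to the −0.07 of all genes. The 4 with the smallest p were Ppp1ca, Csnk2b, Csnk1e and Gsk3b. Ppp1ca, a phosphatase subunit, measured 234 ± 16.2 and 202 ± 14.4 FPKM in DMSO and lenvatinib (SD, n = 3). Csnk2b, a casein kinase subunit, measured 15.5 ± 1.44 and 13.5 ± 0.756 FPKM, and Csnk1e, for a kinase that marks PER for degradation, measured 3.20 ± 0.340 and 2.82 ± 0.0918 FPKM. Gsk3b, another kinase of clock proteins, measured 12.9 ± 0.185 and 12.2 ± 0.417 FPKM.

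No gene of a list known to cycle in many tissues passed. Of 11 tested genes, 7 had positive and 4 negative log2 fold changes, and 0 passed in limma (7 at an unadjusted p below 0.05, where 22% of all genes tested had one; median log2 fold change 0.22, against −0.07 over all genes). Pim3, a kinase, came closest, at 21.2, 19.5 and 19.6 FPKM in DMSO and 26.5, 34.7 and 35.1 FPKM in lenvatinib (log2 fold change 0.64; limma adjusted p = 0.0563). Cirbp, a cold-inducible RNA-binding protein that follows body temperature, measured 11.4, 7.92 and 7.66 FPKM in DMSO and 14.6, 14.9 and 13.9 FPKM in lenvatinib (log2 fold change 0.65; limma adjusted p = 0.0908). Hspa8, a heat shock chaperone, measured 741, 1083 and 1073 FPKM in DMSO and 693, 655 and 649 FPKM in lenvatinib (log2 fold change −0.52; limma adjusted p = 0.146). Herpud1, of the endoplasmic reticulum, measured 53.5 ± 3.53 and 62.5 ± 3.39 FPKM. Over the list, groups did not overlap for 5 of the 11 in the higher and 2 in the lower direction, where over all genes tested 10% and 17.5% did so. The 4 genes named, chosen by their p, are among these.

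The tested genes outside the 10 whose profile over the 6 libraries was most like that of Dbp were Cyp2c66, Cyp2d26, Malrd1, Slc25a34 and Osr2. Likeness was the root mean square difference of log2(FPKM + 1) values centred on each gene's mean, and for these 5 it was 0.06, 0.09, 0.10, 0.11 and 0.12, against 0.07 for Tef, 0.16 for Nr1d1 and 0.18 for Nr1d2. Cyp2c66, a cytochrome P450 gene, measured 8.88, 7.49 and 7.86 FPKM in DMSO and 14.8, 17.2 and 18.6 FPKM in lenvatinib. Reads of such P450 genes could be split between near-identical copies, so Cyp2c66 and Cyp2d26 are uncertain. Slc25a34, a mitochondrial carrier gene, measured 8.85, 9.34 and 9.29 FPKM in DMSO and 19.3, 22.9 and 23.05 FPKM in lenvatinib. The genes nearest to Npas2 were Frk, Adipor2, Cdc42bpa, Tom1l1 and Tsg101, at 0.02 to 0.03. All 5 shared its low value in lenvatinib 1, which follows from choosing them by likeness. Frk, a kinase gene, was at 13.5 FPKM there against 15.1 to 17.8 FPKM in the other libraries. No member came closer to Npas2 than Clock, at 0.21.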

How the data were processed

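The authors deposited FPKM values for 25339 genes in 6 libraries (3 DMSO, 3 lenvatinib). RNA was isolated with TRIzol and sequencing libraries came from a VAHTS kit, per the labels' protocols. The submitters' processing notes name HTSeq, a read counter, and the genome build GRCm39. Aligner, annotation, strand setting and filters are not given.

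Whole reads were recovered from the FPKM steps for 23951 of the 23951 genes above 0 (100%, at a set tolerance of 0.01 reads). The smallest whole numbers that matched were taken, so a factor shared by all libraries would stay hidden. For the 10 members the gene lengths implied were 0.715 (Per3) to 1.54 (Per1) times the annotated exons of another release. The total multiplied by the step varied between libraries by 0.0639%. The 11774 genes that averaged 1 FPKM or more were tested on log2(FPKM + 1) with limma 3.58.1 in R 4.3.3 (trended, robust prior, two-sided, Benjamini-Hochberg adjustment over all of them, threshold 0.05). Alternatives covered the pseudocount, filter, scaling, variance prior, sample weights, replicate number, libraries 2 and 3, and each library left out. Limma with voom weights on recovered reads was added after seeing the data, for the 15818 genes that reached 10 reads in 3 or more libraries. The main procedure was checked on counts simulated for the lenvatinib comparison, with 11774 genes and 3 against 3 independent libraries. It recovered 77% of genes changed by a factor of 2 and 91% of those changed by a factor of 4, with 10 false calls. In the data libraries 2 and 3 of each group were close to each other, so these rates need not hold there.

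The members and gene lists were chosen with earlier results of these data known. The genes named are the members, every gene of the core clock list but 1, which is not reported here, up to 4 of each other list by unadjusted p, and the 5 nearest in profile to Dbp and to Npas2, leaving out unnamed gene models. Thra, Sphk2, Gm35591, Car1, Muc2, Slc26a3, Apoa1, Defa24, Fabp2, Mptx2, Sis, Junb, Atf3 and the sex-linked genes were named after their values were seen. Promoter windows matched 9 of 10 members.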

Additional observations from a re-analysis of the deposited data

How the results depend on the processing

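Of 177 values of the tested clock genes over 20 alternatives, 140 kept their direction and side of the threshold, 22 lost the call, 10 gained it and 5 changed sign. Of 114 values of the other core clock genes, 97, 0, 6 and 11 did so. Only the 4 called members could lose a call. Nr1d1 lost it in 7 of 20 alternatives, Nr1d2 in 7 of 20, Dbp in 6 of 19 and Tef in 2 of 20. The cause was not tested. The planned count tests with edgeR and DESeq2 are not part of these results. They had been run on the recovered reads before limma with voom weights was added, and Hlf did not pass in edgeR.

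Over all genes the calls (129 higher and 110 lower) became 74 and 66 with no filter, 2252 and 5330 with sample weights, 1 and 2 with libraries 2 and 3 averaged, 27 and 19 with them as a random block, and 2203 and 5071 with libraries 2 and 3 of each group alone. Leaving out 1 library gave 22 to 1162 higher and 22 to 3294 lower, with the most calls without lenvatinib 1. The deviations of same-numbered libraries from their group means had correlations of −0.196, −0.159 and −0.151. Those of DMSO 2 with lenvatinib 3 and of DMSO 3 with lenvatinib 2 were −0.186 and −0.143. With libraries 2 and 3 of each group so alike, these values cannot tell if the numbers are a pairing. With the replicate number as a block, 18 genes were higher and 11 lower, and 0 clock genes were higher.

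The clock genes called higher (4) became 7 with sample weights, 6 with libraries 2 and 3 of each group alone, 0 with the pairs averaged, 1 with the random block and 1 to 4 when 1 library was left out. Those called lower (0) became 2 with sample weights, 2 with libraries 2 and 3 of each group alone and 0 to 1 when 1 library was left out. Among other core clock genes the higher calls became 2 with sample weights and 2 with libraries 2 and 3 alone, 1 with voom weights (Hlf) and 0 to 1 when 1 library was left out (1 without lenvatinib 1), and the lower calls became 1 with sample weights.

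Npas2 changed sign with the pairs averaged (−0.060), with the random block (−0.053) and when 1 library was left out (−0.045 to 0.14). Bhlhe40 changed sign with quantile normalization (0.044), median ratio size factors (0.059), the pairs averaged (0.032), the random block (0.029), voom weights (0.060) and when 1 library was left out (−0.049 to 0.031). Nfil3 changed sign with sample weights (−0.035), libraries 2 and 3 alone (−0.035) and when 1 library was left out (−0.077 to 0.21). Without a pseudocount the difference between groups in the log2 ratio was 1.46 for Dbp to Npas2 and 1.496 for Nr1d1 to Bmal1, against 0.99 and 1.32. Depth limits Ciart (13 reads at the fewest) and Per3 (102) most among the clock genes shown as higher.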

Other observations

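Lists of glucocorticoid-induced and immediate early genes, whose stimuli also act on Per1, held 1 called gene each, where 1.1% of all genes were called higher and 0.934% lower. Of 9 tested glucocorticoid-induced genes 1 rose in limma and none fell (median log2 fold change 0.25, against −0.07 over all genes). That gene was Pdk4, the kinase that limits pyruvate oxidation, which fasting and fatty acids also induce. It measured 4.02, 3.11 and 2.71 FPKM in DMSO and 12.3, 10.1 and 9.53 FPKM in lenvatinib (log2 fold change 1.45, SE 0.143; limma adjusted p = 0.00815). Fkbp5, a co-chaperone of the glucocorticoid receptor, measured 60.5, 47.4 and 44.2 FPKM in DMSO and 90.5, 75.6 and 76.7 FPKM in lenvatinib (limma adjusted p = 0.0701). Klf9 measured 14.5 ± 0.0897 and 17.3 ± 0.455 FPKM (limma adjusted p = 0.0924). Lcn2, which inflammation induces as well, measured 4.07, 1.92 and 2.29 FPKM in DMSO and 44.4, 5.34 and 5.17 FPKM in lenvatinib (limma adjusted p = 0.256), with lenvatinib 1 far above the rest.

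Of 7 tested immediate early genes 1 fell and none rose, and all 7 had negative log2 fold changes (median −0.29, against −0.07 over all genes). Junb (−0.025) and Atf3 (−0.009) lay above the median of all genes. With voom weights they were positive (0.043 and 0.049), and the rest of the 7 stayed negative. Fos measured 71.8, 64.9 and 68.0 FPKM in DMSO and 37.2, 41.5 and 40.1 FPKM in lenvatinib (log2 fold change −0.77, SE 0.0691; limma adjusted p = 0.00558). Egr1 measured 17.5 ± 4.88 and 9.98 ± 1.05 FPKM, Ier2 51.1 ± 0.984 and 43.3 ± 2.20 FPKM, and Nr4a1 2.21 ± 1.02 and 1.22 ± 0.0838 FPKM. None of the 3 passed (limma adjusted p = 0.113, 0.113 and 0.240). Groups did not overlap for 4 of the 7 tested genes, all lower, where 17.5% of all genes did so in that direction. These were Fos and the 3 genes above, which were chosen by their p.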
